A study of Homo sapiens with 4 samples.

Results

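Nucleolar and Cajal body small RNAs were compared between PDCD4 and IgG crosslink lists through 4 small RNAs and the genes in which some of them lie. SNORD118 (U8) and SNORD3A (U3) are box C/D small nucleolar RNAs, SCARNA2 and SCARNA9 are small Cajal body RNAs, and TMEM107 and CEP295 are the protein-coding genes that overlap SNORD118 and SCARNA9. A site was taken as a member when its gene label held 1 of these 6 symbols exactly, out of 14387 symbols in the lists. This gave 72 of 158922 PDCD4 sites and 81 of 111361 IgG sites. The 6 genes were chosen because their labelled scores differed between PDCD4 and IgG, so those scores are described here without a test.

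Both kinds of small RNA work as guides inside protein complexes in the nucleus. Box C/D snoRNAs gather in the nucleolus, where most direct methylation of ribosomal RNA, while U3 and U8 are needed instead for cleavage of its precursor, U3 on the way to the small ribosomal subunit and U8 on the way to the large one. Small Cajal body RNAs (scaRNAs) guide modification of the spliceosomal snRNAs in Cajal bodies, and SCARNA2 and SCARNA9 are guides for U2 snRNA.

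The lists come from iCLIP of wild-type MCF10A cells, a non-transformed human breast epithelial line, irradiated with UVC so that RNA is bonded to the proteins it touches. RNA was recovered with an antibody to PDCD4 (2 replicates) or with an isotype control IgG (2 replicates), and cDNA ends mark the bonded nucleotide. The deposited files hold 1 pooled list per antibody, so no spread between replicates can be given and no test between antibodies was made. Each entry is a single nucleotide with a score, the number of cDNAs that ended there. The PDCD4 list summed to 409308 cDNAs and the IgG list to 276139. The median score was 2 in both lists, and scores above 5 made up 1.48% of PDCD4 sites and 0.690% of IgG sites. Summed scores are therefore also given per 10000 cDNAs of their list, and log2 ratios of these shares, PDCD4 over IgG, were computed with 1 cDNA added to each sum. Intervals are 95% intervals and cover counting error only. Sites that failed the false discovery rate threshold of the peak calling are not in the lists, and the level of each RNA in the cells was not analysed here, so a sum of 0 is no measure of how much RNA was recovered.

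The stretches of 30 nt below are centred on the 10 nt with most cDNAs of each profile, read from GRCh38 on the strand of the RNA, with T for U. The position of the cDNAs along the RNA was not itself part of the choice of members, but the stretches hold sites whose scores were. In SNORD118 the central 10 nt hold exactly the 8 PDCD4 sites labelled SNORD118, so this stretch shows the chosen sites again. Capitals mark nucleotides listed as crosslink sites in the list named.
SNORD118, PDCD4 sites, chr17:8173527-8173556, minus strand: ccTCcggagGGCaGATTaGAacAtGatGAT
SNORD3A, PDCD4 sites, chr17:19188062-19188091, plus strand: GtTTCTCTGaACgtGTAGAGcAcCGAAAAc
SCARNA2, IgG sites, chr1:109100349-109100378, plus strand: cccctcCtcccgcTTaCaCTttgatcttat
SCARNA9, IgG sites, chr11:93721757-93721786, plus strand: gggGGTgcgtATGTAtGTCTAtgaaagcCt
SCARNA9, PDCD4 sites, chr11:93721702-93721731, plus strand: acgcacatgtgttTataaaGataacagctg
In SNORD118 and SNORD3A most nucleotides of the stretch were listed for PDCD4, 16 of 30 and 23 of 30. The SCARNA2 stretch had 6 listed nucleotides, all C or T, in the IgG list. In SCARNA9, 14 nucleotides of its stretch were listed for IgG, and the stretch shown for PDCD4 held 2 PDCD4 sites.

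By gene label, the box C/D members stood high in the PDCD4 list and the scaRNA members in the IgG list. SNORD118 had 8 sites with 106 cDNAs in the PDCD4 list (2.59 per 10000 cDNAs) and no site in the IgG list. Its lowest score was 6 and its highest 23. Its log2 ratio of 6.17 (3.33 to 9.01), which rests on the added cDNA, had rank 2 among the 7297 genes with at least 20 cDNAs over both lists. SNORD3A had 25 PDCD4 sites with 178 cDNAs (4.35 per 10000), with scores from 2 to 23. In the IgG list it had 1 site with 3 cDNAs (0.109 per 10000). Its log2 ratio was 4.92 (3.49 to 6.35), rank 22 of the same genes.

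The scaRNA members ran the other way. SCARNA2 had 17 IgG sites with 107 cDNAs (3.87 per 10000), with scores from 1 to 22, and no PDCD4 site. No site of the IgG list had a score above 22. Its log2 ratio of -7.32 (-10.16 to -4.48) also rests on the added cDNA and was the lowest of the 7297 genes. SCARNA9 had 17 IgG sites with 76 cDNAs (2.75 per 10000) and 4 PDCD4 sites with 17 cDNAs (0.415 per 10000). Its log2 ratio was -2.66 (-3.40 to -1.92), rank 66 from the lowest.

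The overlapping protein-coding genes followed the small RNA they hold. Every site labelled SNORD118 was also labelled TMEM107, and every site labelled SCARNA9 also CEP295, so these sums share cDNAs and are not separate. TMEM107, which encodes a membrane protein of the ciliary transition zone, had 188 cDNAs in 27 PDCD4 sites and 10 cDNAs in 5 IgG sites, a log2 ratio of 3.54 (2.66 to 4.41). CEP295, which encodes a centriole protein, had 51 cDNAs in 20 PDCD4 sites and 205 cDNAs in 58 IgG sites, a log2 ratio of -2.55 (-2.99 to -2.12). Of the 6 members, 3 were higher in the PDCD4 list by a log2 ratio of at least 1, which 16.4% of the 7297 genes were, and 3 were lower by as much, which 16% of the genes were. These shares are background only, since the members were chosen on this contrast.

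Summed over the classes, SNORD118 and SNORD3A held 284 PDCD4 cDNAs against 3 IgG cDNAs, a log2 ratio of 5.59 (4.16 to 7.01). SCARNA2 and SCARNA9 held 17 PDCD4 cDNAs against 183 IgG cDNAs, a log2 ratio of -3.92 (-4.62 to -3.22). The log2 ratios of the classes differed by 9.51 (7.92 to 11.09) by label.

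Labels and coordinates did not give the same sums. SNORD118 (ENSG00000200463) spans chr17:8173454-8173587 on the minus strand, 134 nt, and lies inside an annotated untranslated region of both TMEM107 transcripts that span it, on the same strand. Inside these coordinates the PDCD4 list had 8 sites labelled with both genes, with 106 cDNAs, and 19 sites labelled TMEM107 only, with 82 cDNAs. All 5 IgG sites there were labelled TMEM107 only. Every TMEM107 site of either list lay inside SNORD118, 188 of 188 PDCD4 cDNAs (100%, lower bound 98.0%) and 10 of 10 IgG cDNAs (100%, lower bound 72.2%). No site was listed in the rest of TMEM107, which spans 3943 nt. The TMEM107 value is thus the SNORD118 value by coordinates, and SNORD118 read by coordinates had a log2 ratio of 3.54 (2.66 to 4.41) in place of 6.17 by label. The absence of SNORD118 from the IgG labels is a matter of the label, since 10 IgG cDNAs lay inside it.

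SCARNA9 (ENSG00000254911), at chr11:93721513-93721865 on the plus strand and 353 nt long, lies in an intron of CEP295 in all 3 transcripts that span it. The IgG list had 49 sites with 183 cDNAs inside it. Of these, 30 sites with 97 cDNAs were labelled CEP295 only, 17 sites with 76 cDNAs CEP295 and SCARNA9, and 2 sites with 10 cDNAs CEP295 and snoU2_19, a shorter entry within SCARNA9. The PDCD4 list had 8 sites with 24 cDNAs inside it, 4 of them labelled CEP295 only. By coordinates the log2 ratio of SCARNA9 was -3.45 (-4.05 to -2.84), lower than by label.

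Outside SCARNA9, the remainder of CEP295 carried like shares in both lists. Within SCARNA9 lay 183 of the 205 IgG cDNAs labelled CEP295 (89.3%, 84.3% to 92.8%) and 24 of the 51 PDCD4 cDNAs (47.1%, 34.1% to 60.5%). Elsewhere in CEP295 were 12 PDCD4 sites with 27 cDNAs (0.660 per 10000), 7 of them in exons and 5 in introns. The IgG list had 9 sites with 22 cDNAs there (0.797 per 10000), 5 in exons and 4 in introns. All of these sites had a score of 2 or 3, and the log2 ratio outside SCARNA9 was -0.28 (-1.08 to 0.51), an interval that holds 0. The low ratio by the CEP295 label was thus that of SCARNA9.

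SNORD3A (ENSG00000263934), at chr17:19188016-19188232 on the plus strand and 217 nt long, and SCARNA2 (ENSG00000278249), at chr1:109100193-109100612 on the plus strand and 420 nt long, had the same sites by label and by coordinates. No PDCD4 site of any label lay inside SCARNA2. By coordinates, the box C/D members held 366 PDCD4 and 13 IgG cDNAs and the scaRNA members 24 PDCD4 and 290 IgG cDNAs, log2 ratios of 4.14 (3.37 to 4.91) and -4.11 (-4.70 to -3.52). The difference between the classes was 8.25 (7.28 to 9.22). Labels that do not name the small RNA were also found elsewhere. Inside other annotated snoRNAs and scaRNAs, the RNA's own Ensembl gene identifier stood in the label of 152 of 444 PDCD4 sites (34.2%) and 68 of 230 IgG sites (29.6%).

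**Figure D1:**
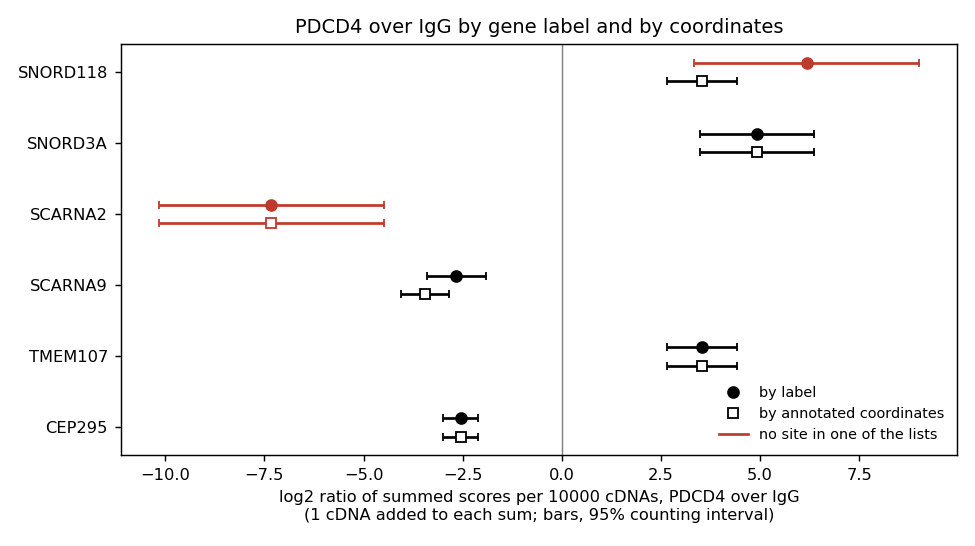
Log2 ratio of the summed scores per 10000 cDNAs, PDCD4 over IgG, for each member by gene label (filled circles) and by annotated coordinates (open squares), with 95% counting intervals as bars. Red marks values where 1 of the lists has no site, so that the ratio rests on the added cDNA. SNORD118 moves from 6.17 by label to 3.54 by coordinates, the value of TMEM107, and SCARNA9 from -2.66 to -3.45, while all 6 members keep their side of 0.

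The cDNAs were gathered in different portions of the RNAs. Along SNORD118, PDCD4 sites ran from nt 3 to nt 70 of 134, with a median cDNA position of 46 (quartiles 41 and 50). The stretch from nt 42 to nt 51, chosen as the 10 nt with most PDCD4 cDNAs, held 8 sites and 106 of the 188 cDNAs (56.4%, 49.2% to 63.3%). The interval does not cover that choice. The highest score was 23 at nt 47 (chr17:8173541). Up to the midpoint of the RNA lay 180 of 188 cDNAs (95.7%, 91.8% to 97.8%), and the last 64 nt had no site. The 8 sites of this stretch are exactly those labelled SNORD118. The 10 sites before it held 49 cDNAs, with scores of 2 to 14, and the 9 sites after it 33 cDNAs, with scores of 1 to 14.

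The IgG sites of SNORD118 did not share these positions. They lay at nt 1, 4, 15, 18 and 62, with scores of 2, 1, 3, 1 and 3. None fell between nt 42 and nt 51, but that stretch was chosen for its PDCD4 cDNAs, so its contrast with IgG is a description only. The highest IgG score was 3 and the lowest PDCD4 score in that stretch 6, neither scaled to list size.

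SNORD3A had a single compact block. Its 25 PDCD4 sites covered 25 of the 32 positions from nt 44 to nt 75, with a median cDNA position of 61.5 (quartiles 55 and 66). The highest scores were 23 at nt 61 and 23 at nt 66. The 10 nt with most cDNAs, from nt 57 to nt 66, held 94 of 178 cDNAs (52.8%, 45.5% to 60.0%), an interval that does not cover their choice. The remaining 142 nt after the block had no site in either list. The lone IgG site, with 3 cDNAs, lay inside the block at nt 69.

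Reads from SNORD3A can also come from near-identical genes. SNORD3B-1 and SNORD3B-2 each differ from it at nt 78 only, SNORD3C at nt 108 only, and SNORD3D at nt 4, 53 and 78, counted from the 5′ end of SNORD3A. The 50 nt after a position occurred once in GRCh38 only for the 20 positions from nt 58 to nt 77, out of 217, and in 2 copies from nt 28 to nt 57. Elsewhere they occurred in 3 to 5 copies. Of the PDCD4 sites, 14 with 126 cDNAs (70.8%, 63.7% to 77.0%) lay among the positions with a single copy and the other 11, with 52 cDNAs, among those with 2 copies. At 30 nt no position of SNORD3A was unique. The first site is 64 nt before the difference from SNORD3C and the last is 3 nt before the difference from SNORD3B-1. How reads with several matches were treated is not given in the sources used here, so where PDCD4 crosslinks along U3 cannot be told apart from where U3 reads can be placed. Labelled sites of the copies were few, 1 PDCD4 site with 5 cDNAs in SNORD3B-1, 1 PDCD4 site with 3 cDNAs in SNORD3D and 1 IgG site with 4 cDNAs in SNORD3B-2.

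In the other small RNAs nearly all positions could be told apart at 50 nt. The 50 nt after a position were unique for 134 of 134 positions of SNORD118, 420 of 420 of SCARNA2 and 352 of 353 of SCARNA9. They were read from the genome, so for the last 50 nt of an RNA they run past its 3′ end. Reads that stay within the RNA are shorter there, and the part of this in the lack of sites at the 3′ ends was not tested. The 50 nt after each listed site of these RNAs were unique in both lists. At 30 nt SCARNA9 was unique at only 267 of its 353 positions, at 29 of its 49 IgG sites and at 6 of its 8 PDCD4 sites, while every listed site of SNORD118 and SCARNA2 was still unique. The block of PDCD4 sites in SNORD118 and, apart from its 3′ end, the lack of PDCD4 sites in SCARNA2 were thus seen in sequence that 50 nt can place.

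SCARNA2 showed separate groups of IgG sites rather than a block. From the 5′ end these lay at nt 82 to 91 with 24 cDNAs, nt 126 to 129 with 12, nt 163 to 176 with 42, nt 197 with 1 and nt 281 to 285 with 28. The highest score, 22 at nt 171, was 20.6% of the 107 cDNAs. Up to the midpoint lay 73.8% (64.8% to 81.2%) of the cDNAs, and the last 135 nt had no site. The methods of the study describe that crosslink sites of the IgG replicates were taken out of those for PDCD4 ahead of peak calling. The part of this step in the absence of SCARNA2 from the PDCD4 list was not tested. Nor was its part in the lower PDCD4 sums of SCARNA9 and the other scaRNAs.

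Along SCARNA9, IgG sites were the most widely spread, from nt 4 to nt 300 of 353. The groups at nt 4 to 32, nt 64 and nt 118 to 157 held 17, 3 and 28 cDNAs, and the 36 sites from nt 184 to nt 300 held 135. Only 26.2% (20.4% to 33.0%) of IgG cDNAs lay up to the midpoint. The highest IgG score was 11 at nt 119, and the densest 10 nt, from nt 255 to nt 264, held 41 cDNAs in 9 sites.

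The 8 PDCD4 sites of SCARNA9 lay at or near IgG sites. Those at nt 1 to 3 held 8 cDNAs, that at nt 184 held 2, those at nt 203 and 209 held 11 and those at nt 258 and 260 held 3. The highest PDCD4 score was 9 at nt 203. At 2 of the 8 positions an IgG site was listed at the same nucleotide, at 6 within 1 nt, and at the farthest within 3 nt. The shared positions were nt 184, with 2 PDCD4 and 4 IgG cDNAs, and nt 258, with 2 PDCD4 and 1 IgG cDNAs.

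**Figure D2:**
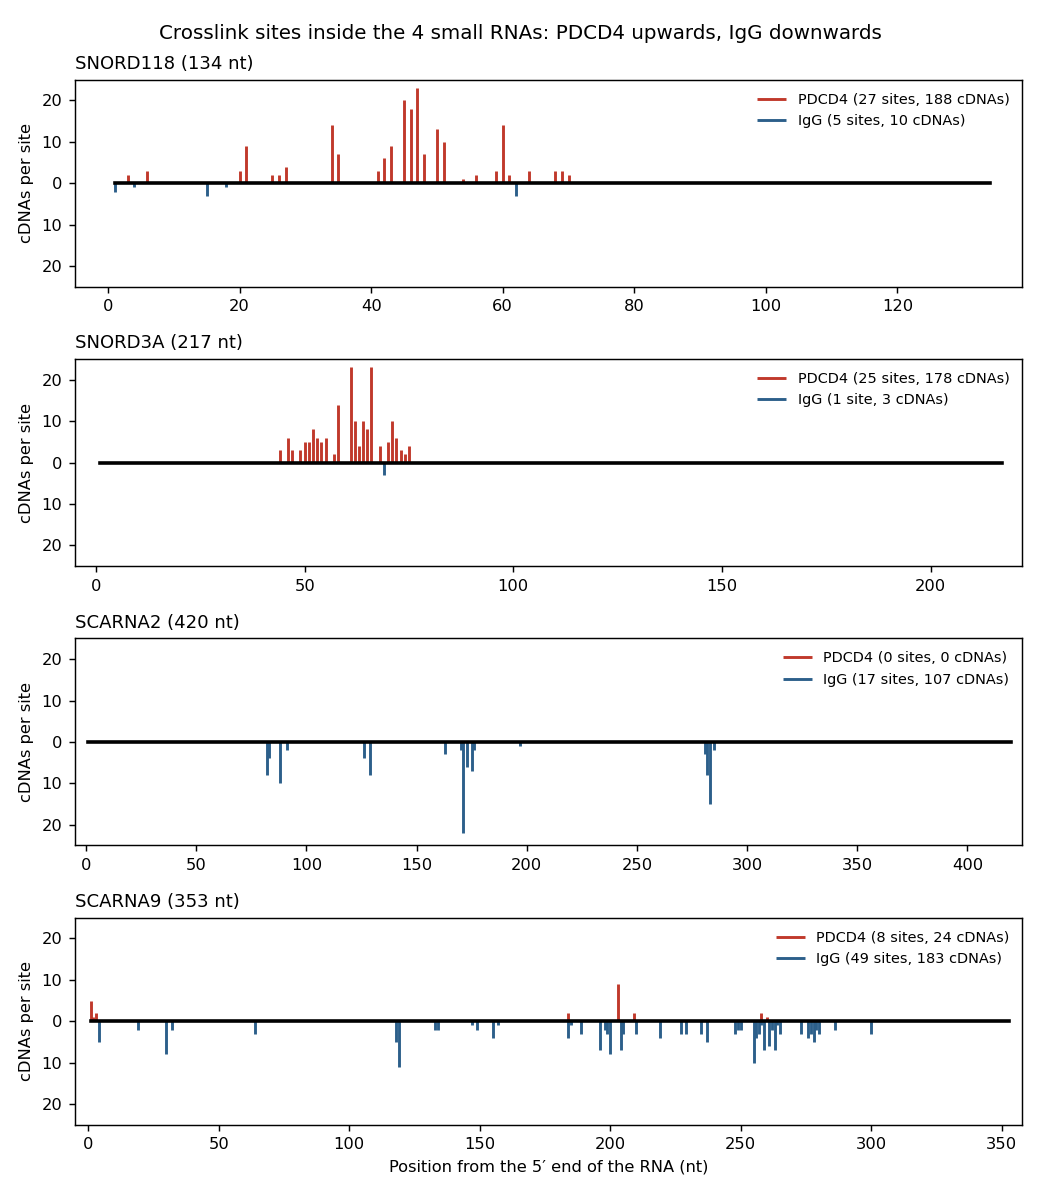
Score of each listed site (cDNAs per site, vertical axis) against its position from the 5′ end of the RNA in nt (horizontal axis), with PDCD4 sites upwards in red and IgG sites downwards in blue, for SNORD118, SNORD3A, SCARNA2 and SCARNA9. PDCD4 sites of SNORD118 lie from nt 3 to nt 70 and those of SNORD3A from nt 44 to nt 75, SCARNA2 has IgG sites only, and the 8 PDCD4 sites of SCARNA9 lie among its 49 IgG sites.

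Shared positions were few in the lists as a whole as well. The methods describe that IgG crosslink sites were taken out of the PDCD4 replicates, and the part of this step in the number of shared positions was not tested. Of the 111361 IgG sites, 721 (0.647%) had a PDCD4 site at the same nucleotide, 752 at the nucleotide before and 772 at the nucleotide after. At offsets of 1 to 10 nt to either side the counts ran from 391 to 772, so the same nucleotide did not stand below its neighbourhood. Among the 81 IgG sites of the members, 2 had a PDCD4 site at the same nucleotide, 9 at the nucleotide before and 3 at the nucleotide after.

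The bases at the listed sites were compared next, since UV crosslinking favours uridine. Inside the 4 small RNAs, 18 of 60 PDCD4 sites (30%, 19.9% to 42.5%) and 29 of 72 IgG sites (40.3%, 29.7% to 51.8%) were at uridine. Over all sites the shares were 46.7% (46.4% to 46.9%) for PDCD4 and 51.6% (51.3% to 51.9%) for IgG. Uridine makes up 26.5% of the 1124 nt of the 4 RNAs. The intervals take each listed nucleotide as independent although many are neighbours, so where they lie is a description only. The PDCD4 interval of the members lay below the share over all PDCD4 sites and held the base composition. The IgG interval of the members lay above the base composition, but at the nucleotide before the listed one the IgG share was 36.1% (26.0% to 47.6%), an interval that holds the base composition, and among sites with a score greater than 5 it was 23.5% (9.56% to 47.3%).

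By RNA, uridine was at 9 of 27 PDCD4 sites of SNORD118 (33.3%, against 28.4% of its bases) and at 5 of 25 PDCD4 sites of SNORD3A (20%, against 27.6%). In the IgG list it was at 8 of 17 sites of SCARNA2 (47.1%, against 20.7% of its bases) and at 18 of 49 sites of SCARNA9 (36.7%, against 32.0%). SCARNA2 was the only one of these whose interval, 26.2% to 69.0%, did not hold its base composition. This too is a description only, since several of its sites are neighbours.

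Box C and box D are the short elements that box C/D RNAs share and on which their core proteins assemble. The letters TGATGA (box C) and CTGA (box D) were searched on the RNA strand. The searched letters can overlap in CTGATGA, which was in none of the 4 RNAs. TGATGA was found at nt 55 of SNORD118, at nt 158 of SNORD3A, at nt 350 of SCARNA2 and at nt 36 and 291 of SCARNA9. The start of the match in SNORD118 was 1 nt from a PDCD4 site and that in SNORD3A 83 nt from the nearest PDCD4 site. In SCARNA9 the nearest PDCD4 sites were 33 and 31 nt away and the nearest IgG sites 4 and 5 nt. The nearest IgG site was 7 nt away in SNORD118, 89 nt in SNORD3A and 65 nt in SCARNA2. TGATGA occurs in 228 of 310 annotated box C/D snoRNAs (73.5%), 7 of 213 H/ACA snoRNAs (3.29%) and 11 of 25 scaRNAs (44%), and CTGA in 96.8%, 49.8% and 72% of them. CTGA was found at nt 116 and 130 of SNORD118 and at nt 53, 104 and 209 of SNORD3A. It was also at nt 394 and 412 of SCARNA2 and at nt 6, 54, 82, 104, 310 and 346 of SCARNA9. The letters of both boxes were thus present in all 4 RNAs, and the class names used here do not part RNAs with them from RNAs without. In SNORD118 the CTGA matches lay in the 64 nt without PDCD4 sites, but little of the 134 nt RNA follows them, so reads starting there would be short. The match at nt 53 of SNORD3A began at a PDCD4 site, in a block where 25 of 32 positions were listed. Both placements were thus largely set beforehand and are descriptions only.

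Other RNAs of the families were read by coordinates, over annotated snoRNAs and scaRNAs with at least 20 cDNAs over both lists. Of 17 such RNAs other than the members, 4 were higher in the PDCD4 list by a log2 ratio of at least 1 (23.5%) and 3 were lower (17.6%). By label, 16.4% of all 7297 genes were higher and 16% lower. Those that were higher were the box C/D snoRNA SNORD14E and the H/ACA snoRNAs SNORA62, SNORA6 and SNORA67, where H/ACA snoRNAs guide pseudouridylation of ribosomal RNA. SNORA62 had 58 PDCD4 cDNAs and SNORD14E 25, with no IgG site in either. Those that were lower were the scaRNAs SCARNA10 (14 PDCD4 and 53 IgG cDNAs, log2 ratio -2.42), SCARNA12 (12 and 36, -2.08) and SCARNA7 (83 and 115, -1.03). The scaRNAs SCARNA13 (42 and 16, 0.77) and SCARNA5 (26 and 31, -0.81) lay between. So did SNORD97 (27 and 12, 0.54), the only other box C/D snoRNA of these, and all remaining H/ACA snoRNAs. Of those H/ACA snoRNAs, SNORA73A (50 and 36, -0.10) and SNORA73B (34 and 42, -0.86) had the largest sums.

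In sums over families, 70 box C/D snoRNAs other than the members held 347 PDCD4 and 90 IgG cDNAs, a log2 ratio of 1.37 (1.03 to 1.70). The 74 H/ACA snoRNAs held 634 and 231, a log2 ratio of 0.88 (0.67 to 1.10). The 20 other scaRNAs held 229 and 311, a log2 ratio of -1.01 (-1.25 to -0.76). The families thus stood in the same order as the members, with smaller ratios. No RNA in them reached the sums of the PDCD4 list for SNORD118 and SNORD3A or of the IgG list for SCARNA9. The IgG sum of SCARNA7, 115 cDNAs, was above the 107 of SCARNA2.

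**Figure D3:**
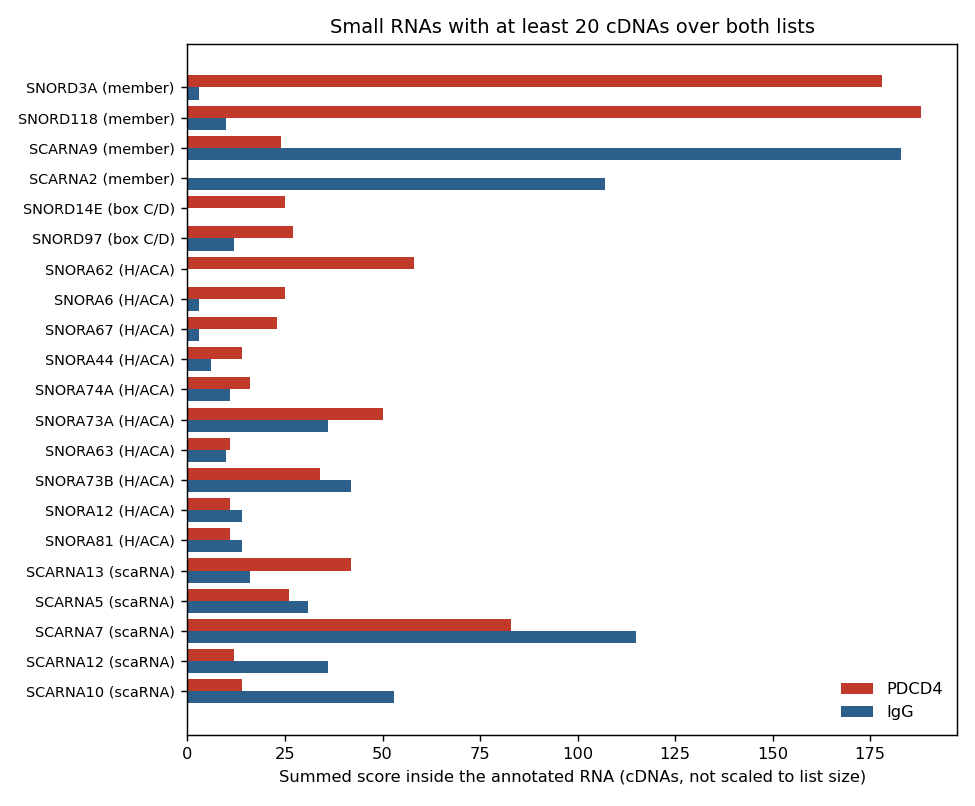
Summed score inside each annotated small RNA in cDNAs, not scaled to list size, for the 4 small RNA members and the 17 other snoRNAs and scaRNAs with at least 20 cDNAs over both lists, with PDCD4 in red and IgG in blue. SNORD3A and SNORD118 have the longest PDCD4 bars (178 and 188 cDNAs) and SCARNA9 the longest IgG bar (183 cDNAs), and among the other RNAs SCARNA7 has the longest bars, 83 and 115 cDNAs.

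By gene label, the other families gave the same order. Other box C/D snoRNAs, of which 36 were labelled, held 181 PDCD4 and 44 IgG cDNAs, a log2 ratio of 1.45 (0.98 to 1.92), and none reached 20 cDNAs. Their largest sums were those of SNORD12B (14 and 0), SNORD14E (12 and 0) and SNORD18C (12 and 0). Other scaRNAs, 12 by label, held 49 and 103, a log2 ratio of -1.62 (-2.11 to -1.14). Both that reached 20 cDNAs were lower by a log2 ratio of at least 1 (16% over all genes). These were SCARNA7 (12 and 39, log2 ratio -2.19) and SCARNA10 (7 and 25, -2.27). H/ACA snoRNAs, 45 by label, held 274 and 88, a log2 ratio of 1.06 (0.71 to 1.40), and the only one with 20 cDNAs, SNORA73A, had 10 and 21 (-1.57). The median over all 7297 genes was -0.09, with quartiles of -0.71 and 0.62.

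The snRNAs, which include the spliceosomal RNAs that scaRNAs help to modify, had a log2 ratio whose interval holds 0. The list of spliceosomal and U7 snRNAs had 31 labelled genes with 213 PDCD4 and 131 IgG cDNAs, a log2 ratio of 0.13 (-0.18 to 0.44). Of 4 genes with at least 20 cDNAs, 1 was higher by a log2 ratio of at least 1 and 2 were lower. Over all 7297 genes these shares were 16.4% and 16%. RNU6-31P was higher in the PDCD4 list (20 and 3, log2 ratio 1.82). RNU2-2P, a U2 gene, had no PDCD4 site and 41 IgG cDNAs, and RNU12 had 7 and 30 (-2.52). RNU4-1 lay between, with 22 and 17 (-0.21).

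Messenger RNAs of the proteins that these RNAs assemble with gave mixed values. The 13 labelled genes for box C/D proteins held 379 PDCD4 and 168 IgG cDNAs, a log2 ratio of 0.60 (0.34 to 0.86). Of 7 with at least 20 cDNAs, 3 were higher by a log2 ratio of at least 1, 2 were lower and 2 lay between, beside 16.4% higher and 16% lower over all 7297 genes. NOP58, a core box C/D protein, had 132 and 38 (1.20), RUVBL2, an ATPase of snoRNP assembly, 40 and 3 (2.79), and SNU13, which binds the box C/D fold, 24 and 6 (1.27). The assembly factor ZNHIT6 had 14 and 24 (-1.30) and the U3 protein gene MPHOSPH10 12 and 17 (-1.04). NOP56 (51 and 27, 0.33) and RUVBL1 (55 and 30, 0.29) lay between.

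The 8 genes for H/ACA and scaRNP proteins held 146 PDCD4 and 116 IgG cDNAs, a log2 ratio of -0.24 (-0.59 to 0.11). Of 5 with at least 20 cDNAs, none was higher by a log2 ratio of at least 1 (16.4% over all genes). Those lower (16% over all genes) were SHQ1, an assembly factor of H/ACA particles (24 and 39, -1.25), and COIL, which encodes the Cajal body scaffold coilin (8 and 12, -1.10, with an interval of -2.32 to 0.13 that holds 0). DKC1, the pseudouridine synthase of H/ACA particles, had 40 and 13 (0.98) and NAF1 43 and 37 (-0.36).

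Among genes with at least 50 cDNAs over both lists, those whose log2 ratio by label was nearest to that of SNORD118 were MINDY4 (109 PDCD4 cDNAs), RNA5-8SP6 (93), INPPL1 (90), LTBP3 (81) and RPS6KA4 (66), none with an IgG site. The likeness is in the ratio by label between 2 pooled lists only. By coordinates SNORD118 had 5 IgG sites and a log2 ratio of 3.54. By label SNORD118 had its PDCD4 cDNAs in 8 sites and RNA5-8SP6 in 11, whereas MINDY4 had 47 sites. Nearest to SCARNA2 was MT-ND4, with no PDCD4 site and 83 IgG cDNAs in 29 sites, then FAM192A (5 and 52), TSSC1 (58 and 265), PRH1 (28 and 128) and LEPR (11 and 52), whose log2 ratios from -3.71 to -2.71 were well above the -7.32 of SCARNA2.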

How the data were processed

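The authors mapped iCLIP reads to the human genome from Ensembl (release 88, GRCh38) and called crosslink sites with iCount, whose version and settings are not given in the sources used here. The 2 replicates of each antibody were deposited as 1 pooled list. The score of a deposited site is a raw count of cDNAs, not normalized, and only sites past the false discovery rate filter are listed. Per the methods, IgG crosslink sites were subtracted from the PDCD4 replicates beforehand, and only scores greater than 5 were kept, a filter that is absent from the deposited lists and served here as an alternative.

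Sites were matched to members by exact symbol in the label, or by strand and coordinates in GENCODE release 44, where SNORD3A was taken at its 217 nt RefSeq span. SCARNA2, TMEM107 and the other spans are GENCODE's. Annotated small RNAs of at most 500 nt were kept. Sites with several symbols counted for each. Shares have 95% Wilson intervals, and log2 ratios 95% intervals from the counting error of both sums. The copies of the 50 nt or 30 nt after each position, read on past the end of the RNA where needed, were counted over both strands of GRCh38. Groups of sites are parted by more than 15 nt. Alternatives were scores greater than 5 or at least 2, number of sites, a pseudocount of 5, totals without mitochondrial sites or the 10 largest genes of each list, positions shared by both lists left out, coordinates, single labels, and bases weighted by score or read 1 nt away.

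The members and gene lists were chosen with earlier results of these data known. Genes named besides the members are the 3 with the largest sums in each family list, those past a log2 ratio of 1 where 5 or fewer, and the 5 nearest in ratio to SNORD118 and to SCARNA2. SNORD3B-1, SNORD3B-2, SNORD3C, SNORD3D and the RNAs named by coordinates were added after their values were seen. The ratio and interval code was tested on simulated data. The software was numba 0.67.0, matplotlib 3.10.9, scipy 1.17.1, pandas 2.3.3 and numpy 2.4.6 under Python 3.11.15.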

Additional observations from a re-analysis of the deposited data

How the results depend on the processing

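No paired analysis was possible because each deposited list pools its replicates, and for the same reason no replicate could be left out. Of 99 alternatives over 20 results, none changed the sign of a log2 ratio or of the difference between the classes. A turn of direction was not defined for the shares. In 81 alternatives the value stayed within the interval of the main setting and in 18 it lay outside. The IgG uridine share passed from above the base composition to below it with scores greater than 5. With scores greater than 5 only, the log2 ratio became -4.03 for SCARNA9, 5.28 for TMEM107 and -4.80 for CEP295, and the difference between the classes 11.54. Under the same filter the share of CEP295 cDNAs inside SCARNA9 became 100% in both lists, the share up to the midpoint 100% for PDCD4 in SNORD118 and 0% for PDCD4 in SCARNA9, which keeps 1 site, and uridine at IgG sites 23.5%. Counting sites in place of cDNAs gave log2 ratios of 2.66 for SNORD118 (lower bound -0.32), 3.19 for SNORD3A, 1.71 for TMEM107 and -2.00 for CEP295, a difference of 6.89 and 88.9% of SNORD118 PDCD4 sites up to the midpoint. By coordinates SCARNA9 was at -3.45. With sites of a single label, TMEM107 was at 2.35 and the difference was 12.24. SNORD118 and SCARNA9 have no site labelled with them alone and gave no value there. Sums under 20 cDNAs carry wide intervals, and the pooled lists hold no spread between replicates.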

Other observations

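Other structured nuclear and cytoplasmic small RNAs were read by label. Their 11 genes held 84 PDCD4 and 117 IgG cDNAs, a log2 ratio of -1.04 (-1.44 to -0.64). Of 4 with at least 20 cDNAs, 1 was higher by a log2 ratio of at least 1 and 3 were lower. Over all 7297 genes these shares were 16.4% and 16%. The higher one was RPPH1, the RNA of RNase P, with 33 and 4 cDNAs (log2 ratio 2.20, 0.84 to 3.55). RMRP, the related RNA of RNase MRP, had 13 and 32 (-1.80, -2.71 to -0.90). RN7SK, which holds back the transcription elongation kinase P-TEFb, had 13 and 28 (-1.62), and the vault RNA VTRNA1-1 had 6 and 18 (-2.01).

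Non-coding hosts of snoRNAs, 21 by label, held 880 PDCD4 and 464 IgG cDNAs, a log2 ratio of 0.35 (0.19 to 0.52). Of 15 with at least 20 cDNAs, 4 were higher by a log2 ratio of at least 1, 1 was lower and 10 lay between, beside 16.4% higher and 16% lower over all 7297 genes. SNHG5 had 46 PDCD4 and 4 IgG cDNAs (2.66), SNHG12 70 and 13 (1.77), SNHG16 121 and 25 (1.66) and SNHG8 19 and 5 (1.17, -0.15 to 2.49). SNHG22 was lower, with 11 and 25 (-1.68). SNHG14, the largest by sum, had 194 and 108 (0.27) and ZFAS1 51 and 65 (-0.91).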
